A study of Mus musculus with 22 samples.

Results

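Whether reverted cells that had met leukemia inhibitory factor (LIF) during the first 16 days still differed after expansion from cells that had not was addressed with 10 of the 22 bulk RNA-seq libraries of the series, which form 5 pairs of the same line, activator and passage. In each pair 1 library came from cells given the activator alone before day 16 and 1 from cells given the activator plus LIF, so the groups AICAR or A769662 (n = 5 libraries) and AICAR+LIF or A769662+LIF (n = 5 libraries) were compared within pairs. Libraries were paired by their sample titles.

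All 10 libraries came from primed mouse epiblast stem cells (mEpiSCs), which had been expanded with FGF2 and Activin A, Oct4GIP cells on fibronectin. All were plated on feeder fibroblasts on the day before treatment. From day 0 to day 16 they were treated with AICAR, a nucleoside that cells convert to an AMP mimic, or with A769662, a direct activator of AMP-activated protein kinase (AMPK). From day 16 the bulk culture was passaged in 2iL, a medium with inhibitors of MEK and GSK3 and with LIF. All 10 libraries therefore had LIF in the medium at harvest, and by treatment the groups differ in LIF before day 16 only. In the paper, fewer Oct4GIP cells were positive for the Oct4-driven GFP at day 16 with AICAR alone than with AICAR+LIF. Fewer attempts with AICAR alone gave reverted cells. The cultures passaged from day 16 may thus also have differed in make-up, which cannot be told apart from early LIF here. The pairs were AICAR d16+2p, AICAR d16+3p, AICAR d16+10p and A769662 d16+10p of the Oct4GIP line, labelled strain 129/Ola, and AICAR d16+10p of the 129/MSM line, labelled strain 129/MSM; the number before p counts passages in 2iL. Oct4GIP cells carry an Oct4-driven GFP and puromycin resistance reporter, and the methods list this line as XX and the 129/MSM line as XY. The labels give epiblast as the tissue of all samples. Each condition has 1 library, and nothing states that the pairs were separate cultures of the line, so the p-values measure only the spread between these samples. Naive mouse embryonic stem cells (mESCs, a Rex1-GFP line) and the 2 primed mEpiSC lines, 1 library each, served as references.

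LIF binds LIFR and gp130 (Il6st), which activate JAK kinases and through them the transcription factor STAT3. STAT3 induces its own feedback inhibitor Socs3 and naive pluripotency factors such as Klf4 and Tfcp2l1, and mouse naive cells are classically maintained by this route. The GSK3 inhibitor of 2iL stabilizes β-catenin and keeps Wnt target genes such as Axin2, Sp5 and Cdx1 switched on, while the MEK inhibitor keeps ERK target genes low. The kinases of the integrated stress response raise translation of ATF4, whose targets include Trib3, Chac1 and the serine synthesis enzyme Psat1.

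Sequences at or before the start of 3 genes are shown because each represents a pathway followed here, and they carry the classical motif of that pathway in capitals. The Socs3 sequence is chr11:117969367-117969616 on the minus strand, with the STAT motif TTCNNNGAA 154 bases before the start. The Sp5 sequence is chr2:70474673-70474922 on the plus strand, with the TCF motif CTTTGA 204 and 104 bases before the start. The Trib3 sequence is chr2:152344028-152344057 on the minus strand, a stretch of 30 bases in the start region. In it the CHOP-ATF4 composite motif TGATGNAA lies on the opposite strand, 14 bases after the start. Coordinates are GRCm38.p6, and the starts and sequences, written from 5′ to 3′, are from RefSeq. The gene spans given further on come from another annotation, in which Socs3 begins further upstream, so that the Socs3 window lies inside that span. In that annotation Trib3 begins at 152344032, inside the stretch shown.
Socs3: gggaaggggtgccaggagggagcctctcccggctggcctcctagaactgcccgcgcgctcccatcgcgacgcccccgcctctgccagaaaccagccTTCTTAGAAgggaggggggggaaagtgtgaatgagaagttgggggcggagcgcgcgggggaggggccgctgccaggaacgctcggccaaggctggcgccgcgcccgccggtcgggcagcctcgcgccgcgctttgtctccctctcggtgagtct
Sp5: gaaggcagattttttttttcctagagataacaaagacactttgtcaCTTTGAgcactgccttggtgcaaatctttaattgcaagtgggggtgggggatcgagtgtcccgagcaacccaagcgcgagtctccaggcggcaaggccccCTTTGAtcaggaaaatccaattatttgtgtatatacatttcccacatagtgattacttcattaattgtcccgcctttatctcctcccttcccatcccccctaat
Trib3: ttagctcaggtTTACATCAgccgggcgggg

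Windows from 250 bases before to 50 bases after the start were searched on both strands. TTCNNNGAA was found in 8.30% of all 32851 promoter windows and in 5 of the 17 matched windows of the 19 STAT3 target genes listed here. CTTTGA was found in 16.0% of all windows and in 3 of 7 matched windows of the 11 Wnt target genes. TGATGNAA was found in 3.97% of all windows and in 6 of 14 windows of the integrated stress response genes. A match describes these letters only and shows neither binding nor its absence.

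Library totals ran from 1689495 counts (AICAR d16+10p) to 3404489 counts (AICAR d16+2p), so 3 counts, taken as the floor, equal 0.894 to 1.76 CPM (library counts rescaled to a common total). The sum of 11 naive markers was 5034 to 7268 CPM without LIF and 4855 to 6476 CPM with LIF, next to 6205 CPM in naive mESCs and 600.5 to 1126 CPM in primed mEpiSCs, so the cells carried the markers of the naive state that their label implies. Sums of 15 feeder fibroblast markers were 19 to 127 CPM without LIF and 13.9 to 135 CPM with LIF, highest in both libraries of the d16+2p pair. Primitive endoderm markers (9 genes) summed to 8.17 to 42.9 and 7.08 to 35.3 CPM, trophoblast markers (9) to 11 to 36.3 and 7.86 to 20.5 CPM, mesendoderm markers (10) to 11.5 to 42.5 and 9.86 to 28.7 CPM, and neuroectoderm markers (9) to 58.8 to 201 and 104 to 158 CPM, without and with LIF in turn. The ranges overlapped for each of these marker sets, and Hand1 and Mesp1 had no read in any of the 10 libraries.

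Some libraries stood apart from the pairing. For each gene the squared count difference within a pair was divided by that expected from counting. The median over 10329 genes with a mean of at least 10 CPM was set against its value under counting alone. This ratio was 1.27 for AICAR d16+2p, and 2.98, 3.07, 4.05 and 2.55 for AICAR d16+3p, AICAR d16+10p, A769662 d16+10p and 129/MSM. For the median gene the d16+2p libraries thus differed by little more than counting error. Of the Oct4GIP libraries at d16+10p, AICAR+LIF was closer to A769662 without LIF (2.72) than to AICAR, its partner (3.07), and A769662+LIF was closer to AICAR without LIF (2.94) than to A769662 (4.05). The ratio rises with depth, which was 3317611 counts for A769662 and 1689495 counts for AICAR without LIF. The labels were kept as deposited, but the direction of the LIF differences in these 2 pairs is uncertain. The count of genes called and the medians of several gene lists are also given without them.

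**Figure D1:**
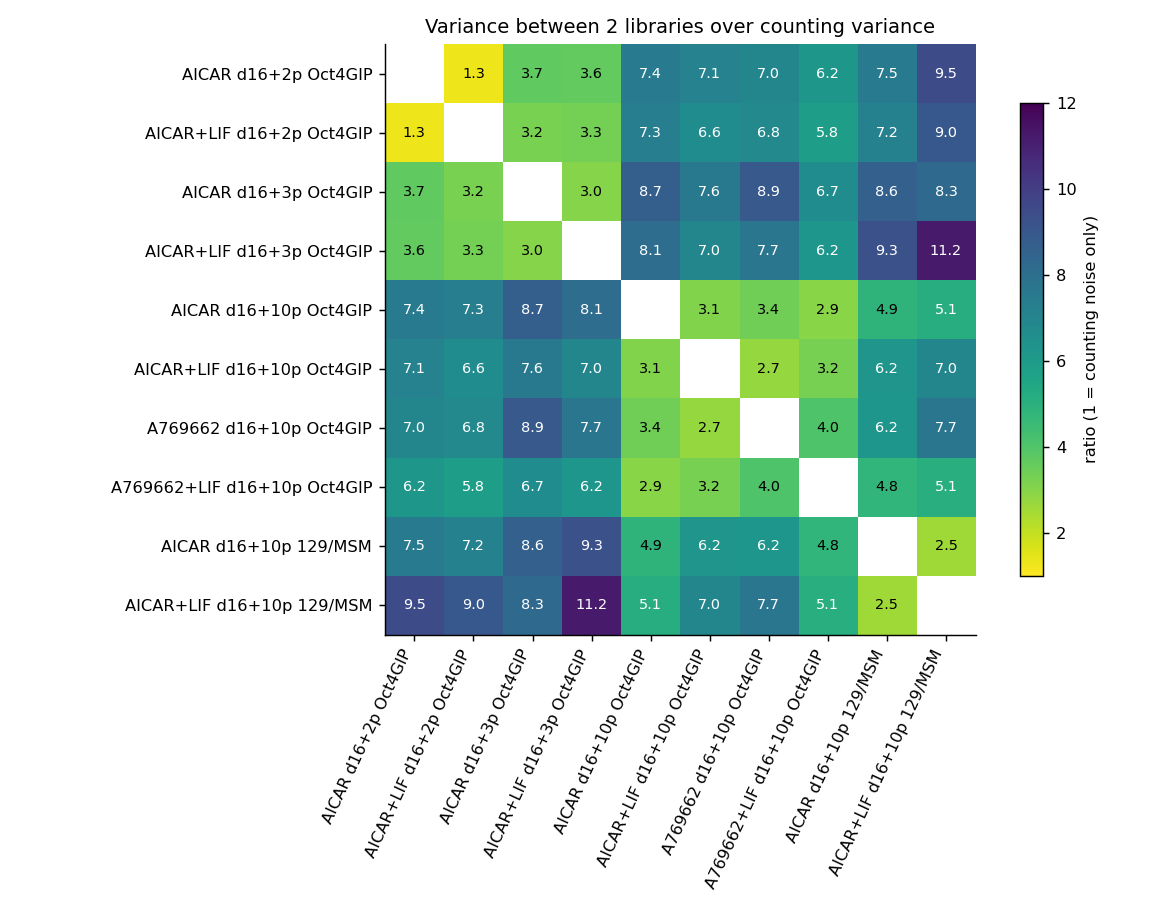
Median squared count difference between every 2 of the 10 libraries, relative to that expected from counting (colour and printed ratio, no unit), with libraries named on both axes. The ratio within the d16+2p pair is 1.27, and the AICAR+LIF and A769662 libraries of Oct4GIP at d16+10p differ by 2.72, less than either differs from its own partner.

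No gene passed the test for a difference between cells with and without early LIF. With pair as a covariate, 0 of 12821 genes (0%) passed an adjusted p of 0.05 (edgeR quasi-likelihood test), every adjusted p was at least 0.9998, and 310 genes (2.42%) had an unadjusted p under 0.05, of which 124 were higher and 186 lower with LIF. DESeq2 called 0 genes, with 86 under an unadjusted 0.05, and limma voom 0, with 335. Without both Oct4GIP pairs at d16+10p edgeR called 0 of 13086 genes, with 262 under an unadjusted 0.05. Without the filter on low counts, 44 genes were called, 9 higher and 35 lower, of which 29 had mixed signs over the pairs; the prior degrees of freedom were then infinite, against 5.4 with the filter, so that all genes took their variance from 1 trend. Of all genes tested 341 (2.66%) were higher with LIF in 5 of 5 pairs and 328 (2.56%) were lower in 5 of 5. CPM of the groups of 5 libraries did not overlap for 18 genes (0.14%), 8 higher and 10 lower. With 4 residual degrees of freedom and 5 pairs, a common effect may lie under what this test could call, and not only a small one. Cdx1, with a log2 difference of -1.01 ± 0.23 and lower in 5 of 5 pairs, did not pass.

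In the following, values run in the order AICAR d16+2p, AICAR d16+3p, AICAR d16+10p, A769662 d16+10p and 129/MSM, without LIF and then with LIF in each pair. Differences are log2 fold changes, LIF minus no LIF, with the standard error of the edgeR fit. Genes are named by the smallest unadjusted p among those with 1 sign in 5 of 5 pairs; the common sign is therefore part of the choice, none passed the adjusted test, and a bulk library cannot tell fewer cells of a type from less RNA per cell.

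Of the 10 genes named on the lower side 3 were Wnt targets, Axin2, Cdx1 and Sp5. Axin2 (chr11:108920349-108950783), the feedback scaffold of β-catenin destruction and a general Wnt target, had 69.7 and 46.3, 46.6 and 28.8, 146 and 95.4, 117 and 113, and 160 and 83.7 CPM, a difference of -0.57 ± 0.13. Every pair read lower with LIF, by little for A769662, and the groups overlapped. Cdx1, a caudal homeobox factor, had 17.6 and 11.4, 11.5 and 10.0, 43.3 and 21.9, 29.6 and 16.2, and 76.8 and 19.3 CPM (-1.01 ± 0.23). Sp5, a zinc finger repressor and direct TCF target, had 17.6 and 13.3, 3.58 and 3.46, 76.7 and 68.8, 81.2 and 37.6, and 65.3 and 38.1 CPM (-0.59 ± 0.17). The d16+3p and d16+10p AICAR pairs of Sp5 were nearly equal, and the larger gaps lay in A769662 and 129/MSM. Without LIF, Sp5 ranged from 3.58 CPM at d16+3p to 81.2 CPM in A769662.

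Over the 8 Wnt target genes tested of 11 listed, the median was -0.39, against 0.00 over all genes tested, and 3 had an unadjusted p under 0.05, all lower (Axin2, Cdx1, Sp5), beside 2.42% of all genes in both directions (186 of 12821 lower). These 3 are the genes named above for their small p, so their count is not separate support. The list was also chosen with earlier results of these data known. By pair the median was -0.17, 0.26, -0.24, -0.85 and -0.85, so it was above 0 at d16+3p. Lef1, a DNA-binding partner of β-catenin, had 49.8 and 50.1, 10.8 and 19.1, 9.95 and 7.93, 20.2 and 3.76, and 60.0 and 28.3 CPM, with signs that differed between pairs. Cyclin D1 (Ccnd1) had a difference of 0.18 ± 0.12 and Tcf7 of -0.03 ± 0.14. Without both Oct4GIP pairs at d16+10p the median of the list was -0.19, and leaving out 1 pair at a time gave -0.51 to -0.09.

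Other genes on the lower side were the epithelial adhesion molecule Epcam (-0.55 ± 0.13), the actin regulator Shroom3 (-0.44 ± 0.10), the glucose transporter Slc2a3 (-0.31 ± 0.09), Ubtd1 (-0.79 ± 0.19), Mmrn2 (-0.49 ± 0.14), Slc35b4 (-0.39 ± 0.11) and Wdr81 (-0.41 ± 0.12). Epcam had 92.1 and 75.5, 90.7 and 72.4, 75.5 and 36.8, 48.6 and 27.8, and 38.4 and 29.1 CPM, and its groups overlapped. Wdr81, an endosomal protein, had 28.0 and 22.8, 28.7 and 22.5, 31.0 and 22.2, 32.0 and 22.9, and 26.1 and 18.9 CPM. It was the single named gene whose lowest library without LIF lay above its highest library with LIF.

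Trib3 had the smallest unadjusted p on the higher side, and Psat1 was also among its 10 named genes. Trib3 (chr2:152337422-152344032), a pseudokinase induced by ATF4 and CHOP, had 7.15 and 9.86, 6.81 and 20.8, 43.9 and 59.3, 28.7 and 58.3, and 60.4 and 87.3 CPM (0.77 ± 0.17). It read higher with LIF in each pair, yet its level without LIF at d16+10p was above that with LIF at d16+2p or d16+3p. Psat1 had 104 and 108, 158 and 181, 434 and 480, 365 and 521, and 363 and 519 CPM (0.29 ± 0.09). Atf4, named here after its values were seen, had 135 and 143, 124 and 266, 386 and 466, 389 and 496, and 431 and 477 CPM (0.39 ± 0.14); its largest gap was at d16+3p, where chromosome 15, on which it lies, was higher as a whole with LIF.

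Of 12 integrated stress response genes tested of 14 listed, 5 had an unadjusted p under 0.05, all higher (Trib3, Atf4, Psat1, Chac1, Nupr1), beside 2.42% of all genes in both directions (124 of 12821 higher), and the median was 0.31 against 0.00. Trib3 and Psat1 were already named above for their small p. This list too was chosen with earlier results of these data known, so the count is not separate support. By pair the median was 0.09, 0.49, 0.00, 0.71 and 0.48. Over the pairs it was 0.26 without both Oct4GIP pairs at d16+10p and 0.27 to 0.42 when 1 pair was left out. Chac1, a glutathione-degrading enzyme, had 0.894 and 0.379, 1.79 and 3.46, 17.6 and 21.6, 6.34 and 26.7, and 22.9 and 35.4 CPM, and Nupr1, a stress-induced nuclear protein, had a pair difference of -1.26 at d16+2p and 1.43 for A769662. CHOP (Ddit3) differed in sign, with -0.82 in the d16+10p AICAR pair and 0.67 to 0.96 in the others. Asns, the asparagine synthetase that ATF4 also drives, had a difference of -0.02 ± 0.10.

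The remaining genes on the higher side were mt-Nd6 (0.77 ± 0.18), a mitochondrially encoded complex I subunit, the mitochondrial folate enzyme Aldh1l2 (0.90 ± 0.24), the endoplasmic reticulum stress gene Herpud1 (0.55 ± 0.16), the growth factor Vegfa (0.53 ± 0.16), B3gat3 (0.40 ± 0.13), the Wnt antagonist Sfrp1 (0.35 ± 0.11), Mrpl40 (0.32 ± 0.09) and Mycn (0.31 ± 0.08). mt-Nd6 had 11.3 and 22.0, 8.60 and 16.6, 11.7 and 20.6, 6.64 and 10.5, and 6.53 and 8.25 CPM. The 16 mitochondrial transcripts as a group did not share that sign, with medians of 0.03, 0.41, 0.43, -0.62 and -0.52 by pair. Vegfa had 2.68 and 4.17, 5.38 and 10.4, 38.6 and 43.1, 35.3 and 47.4, and 24.9 and 42.5 CPM, a passage gap far wider than any LIF gap.

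**Figure D2:**
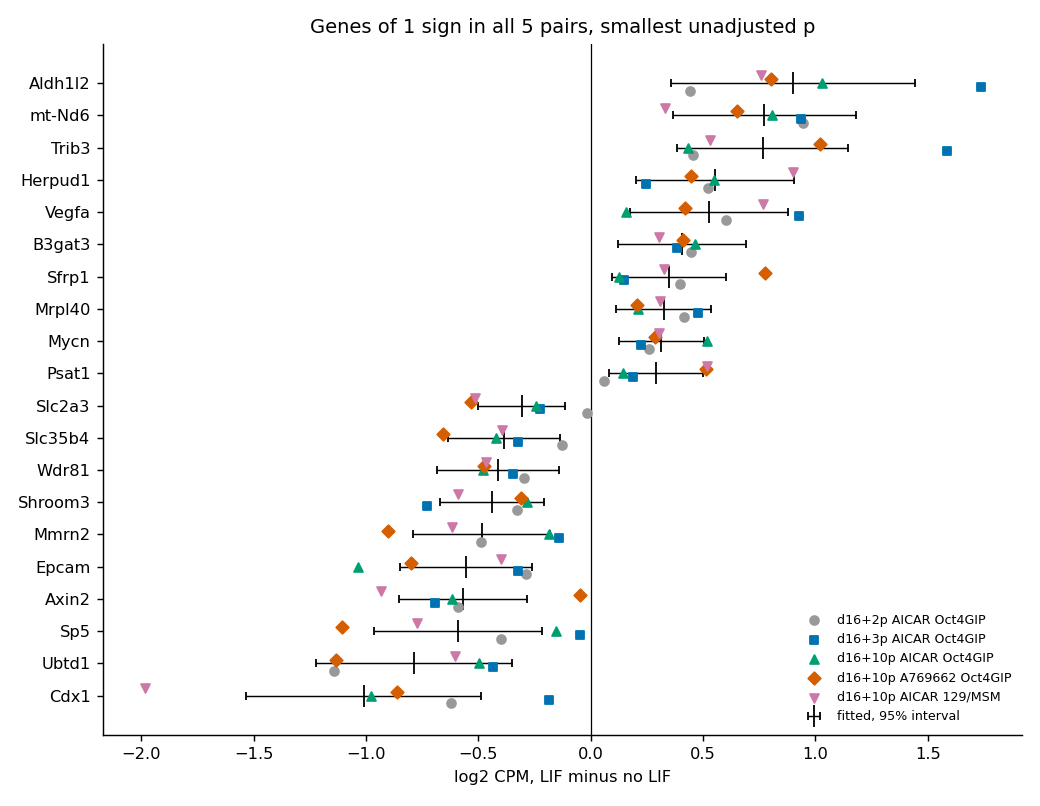
Log2 difference of CPM with LIF minus without LIF (x axis) in each of the 5 pairs (points, by pair) for the 20 genes with the smallest unadjusted p and 1 sign in 5 of 5 pairs (y axis), with the fitted change as a tick and its 95% interval as a line. The shared sign is the rule that chose the genes, and for Axin2 the A769662 pair lies close to 0 at -0.05.

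The lists of LIF pathway genes had small median differences over the 5 pairs, and most of their genes had signs that varied between pairs. Socs3 (chr11:117966079-117970047), the direct STAT3 target, had 52.2 and 45.5, 57.3 and 65.1, 33.4 and 32.0, 33.2 and 24.4, and 64.9 and 49.9 CPM (-0.17 ± 0.12). It read higher with LIF at d16+3p and lower in the other 4 pairs, and the groups overlapped. Klf4 had a difference of -0.16 ± 0.14 with 116 and 116 CPM at d16+2p and 285 and 206 CPM in 129/MSM, and Tfcp2l1 of -0.12 ± 0.09. Over 15 STAT3 target genes tested of 19 listed the median was -0.11. At an unadjusted p under 0.05, 0 were higher and 1 lower, beside 2.42% of all genes in both directions. The lower gene was Klf5 (-0.20 ± 0.09), a Kruppel-like factor, which read lower in 5 of 5 pairs. By pair the median of the STAT3 target genes was -0.08, 0.32, -0.00, -0.51 and -0.21.

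Of 14 receptor and JAK-STAT components tested of 15 listed, 1 had an unadjusted p under 0.05, beside 2.42% of all genes. This was the kinase Tyk2, with 51.9 and 40.6, 55.9 and 49.2, 58.5 and 47.6, 56.8 and 48.1, and 76.3 and 66.8 CPM (-0.25 ± 0.09), lower in 5 of 5 pairs. The receptor subunits Lifr (0.17 ± 0.12) and Il6st (-0.03 ± 0.08) and the kinase Jak1 (0.05 ± 0.15) differed in sign between pairs. Stat3 had a difference of -0.16 ± 0.13, with 0.51 at d16+3p and -0.36 to -0.27 in the others. The adaptor Grb2 read higher in 5 of 5 pairs, by 0.05 to 0.20. The median of the components was -0.06.

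Naive pluripotency genes also read close to equal. Of 22 tested, 0 had an unadjusted p under 0.05 on the higher side and 2 on the lower side, Klf5 and the germline and pluripotency regulator Prdm14 (-0.37 ± 0.13), and the median was -0.04. The share of all genes under that p was 2.42% in both directions. Pou5f1 (Oct4) had 959 and 951, 1073 and 1171, 728 and 832, 852 and 912, and 912 and 876 CPM (0.07 ± 0.07). Nanog had 456 and 484, 588 and 477, 494 and 765, 744 and 644, and 774 and 727 CPM (0.02 ± 0.12). Both genes varied between libraries by amounts larger than the mean LIF difference, and neither sign was shared. Esrrb (-0.05 ± 0.08), Zfp42 (0.05 ± 0.16) and Dppa5a (0.05 ± 0.08) also read close to 0, and the 95% interval of Esrrb was -0.24 to 0.13.

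The distance to naive mESCs did not separate the groups. Against the naive library, Pearson's r of log2 CPM over all genes was 0.944, 0.949, 0.955, 0.957 and 0.956 without LIF and 0.942, 0.946, 0.958, 0.957 and 0.958 with LIF. The mean difference was 0.000463 ± 0.00248 (SD, n = 5 pairs, two-sided exact permutation test, p = 0.75, where the smallest p that 5 pairs allow is 0.0625), and r was higher with LIF in 3 of 5 pairs. The r differed more between passages than with LIF, since both libraries at d16+2p were below all 6 at d16+10p.

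Among the other lists, formative and primed genes (13 tested of 18) had a median of 0.00, ERK feedback genes (7 of 13) of -0.05, X inactivation and X dosage genes (6 of 8) of -0.06, p53 targets and G1 genes (8 of 9) of -0.05 and AMPK and p38 genes (12 of 15) of 0.04, each with 0 members under an unadjusted p of 0.05 (edgeR). Glycolysis genes (14 of 14) had a median of -0.00 and 1 lower member, Slc2a3, and DNA methylation genes (11 of 11) a median of 0.02 and 1 lower member, Prdm14. Over all genes the share under that p was 2.42%. Dnmt3b, a de novo methyltransferase that marks the formative state, had 535 and 567, 413 and 502, 82.6 and 126, 104 and 223, and 51.4 and 42.1 CPM (0.38 ± 0.17). Its fall between passages exceeded its gaps with LIF. Of 6 interferon and MHC class I genes tested of 13, the antiviral membrane protein Bst2 was higher in 5 of 5 pairs (0.56 ± 0.20), and the list median was 0.21. Without both Oct4GIP pairs at d16+10p the median was 0.13 for ERK feedback genes and -0.07 for DNA methylation genes. It was then 0.06 for formative and primed genes, 0.04 for glycolysis genes and 0.28 for interferon and MHC class I genes.

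Germline genes (9 of 14) had a median of -0.31 with 0 under an unadjusted p of 0.05, and medians of 0.02, 0.35, 0.01, -1.10 and -1.14 by pair. The median was -0.08 without both Oct4GIP pairs at d16+10p. Dazl, an RNA-binding protein of germ cells, had 126 and 140, 73.1 and 93.2, 214 and 113, 214 and 48.5, and 107 and 152 CPM (-0.38 ± 0.34), lower with LIF in the Oct4GIP pairs at d16+10p and higher in the other 3. Of the Y-linked genes 1 of 6 was tested, Kdm5d (0.11 ± 0.21), whose reads in an XX line may come from its X-linked copy, which was not tested. Kdm5d had 16.4 and 12.9 CPM at d16+2p and 6.04 to 9.70 CPM in the other paired Oct4GIP libraries. Primed Oct4GIP cells, of the same line, had 1.81 CPM. Of 20 genes of the 2-cell-like state 4 were tested, all Zscan4 copies, with a median of -1.22. In this list 1 member, Zscan4e, was lower at an unadjusted p under 0.05 (edgeR), beside 2.42% of all genes. By pair the median of these copies was -0.03, -4.82, 1.16, -0.72 and -3.19, so it rested on few pairs and hardly differed at d16+2p. Without both Oct4GIP pairs at d16+10p it was -1.40. Zscan4c had 77.5 and 68.6, 48.4 and 1.04, 1.76 and 4.44, 1.51 and 0.752, and 3.67 and 0.786 CPM, and it was near the floor in all 6 libraries at d16+10p. Reads of near-identical Zscan4 copies may be split between them, so single copies are uncertain.

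Imprinted genes (21 of 32) had a median of 0.13, with 4 higher (Rian, Mirg, Mest, Gnas) and 1 lower (Plagl1) at an unadjusted p under 0.05, beside 2.42% of all genes. The median was 0.03 without chromosomes 8, 12 and 15, and 0.05 to 0.16 with 1 pair left out. The noncoding RNA Rian, read from the maternal allele of the Dlk1-Meg3 domain on chromosome 12, had 476 and 478, 291 and 462, 211 and 219, 130 and 390, and 174 and 223 CPM (0.53 ± 0.20), and its neighbours Meg3 (0.45 ± 0.21) and Mirg (0.58 ± 0.23) had their largest gap in the same A769662 pair. In that pair the median of chromosome 12 was 0.36 higher with LIF, against pair differences of 1.46 to 1.63 for the 3 transcripts; the part of one in the other was not tested. Rian is listed under more than 1 gene identifier with nearly equal counts, so its level is uncertain. Gnas was higher (0.29 ± 0.11) and Plagl1, a zinc finger regulator of imprinted growth genes, lower (-0.41 ± 0.12) in 5 of 5 pairs. H19 had 201 and 172, 132 and 28.8, 1.76 and 0, 0.906 and 28.6, and 15.9 and 3.14 CPM, with no shared sign.

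**Figure D3:**
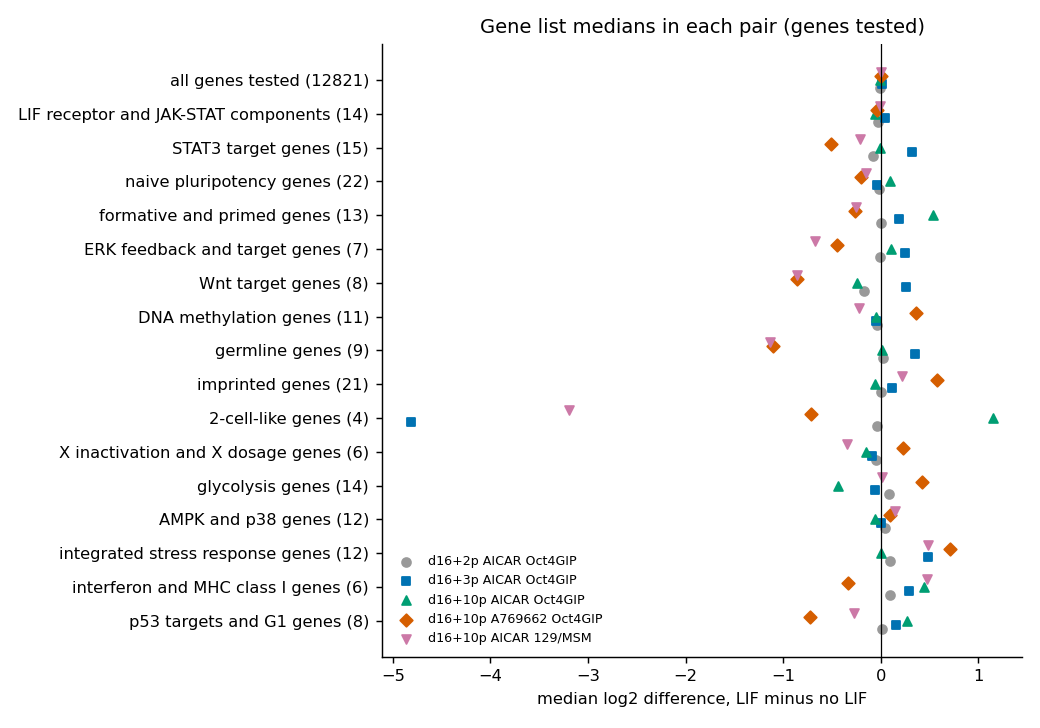
Median log2 difference with LIF minus without LIF (x axis) of each gene list (y axis, number of genes tested in brackets) in each of the 5 pairs (points), with all genes tested at the top. Wnt target genes run from 0.26 at d16+3p to -0.85 in A769662 and 129/MSM, and the medians of JAK-STAT components stay between -0.06 and 0.04.

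Single pairs held large differences that other pairs did not repeat. Among genes with at least 50 counts over both libraries of a pair, 33 of 10811 (0.305%) differed by 2-fold or more at d16+2p, 275 of 10433 (2.64%) at d16+3p, 393 of 10079 (3.9%) in the AICAR pair at d16+10p, 505 of 10674 (4.73%) in the A769662 pair and 205 of 10368 (1.98%) in 129/MSM. Each pair is 1 library against 1, so these counts have no replicate check. On the higher side 586 genes passed 2-fold in 1 pair, 25 in 2 and 1 in 3 pairs (Mapk8ip2), and on the lower side 683, 43 and 1 (Gm48799). None passed in 4 or 5 pairs, and 133 genes passed in opposite directions in different pairs. Across 10329 genes, the 10 correlations between pair differences ran from r = -0.304, between the Oct4GIP pairs at d16+10p, to r = 0.0936; genes are not independent replicates, and no library was shared.

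The opposite signs of both Oct4GIP pairs at d16+10p, whose direction is uncertain as stated above, were seen in their leading genes. Mid1 (chrX:169685199-170005736), a microtubule-associated ubiquitin ligase, had 14.0 and 13.7, 2.51 and 487, 84.9 and 548, 556 and 9.03, and 4.49 and 1.57 CPM, next to 120 CPM in naive mESCs and 575 CPM in primed Oct4GIP cells. The Y-linked pseudogene Mid1-ps1 may share its reads. The immediate early gene Egr1 had 1.49 and 2.28, 36.6 and 21.1, 1.17 and 86.5, 146 and 0.752, and 1.22 and 0.786 CPM, and Fos had 1.76 and 43.1 CPM in the AICAR pair and 42.3 and 1.88 CPM in the A769662 pair. AICAR+LIF and A769662 without LIF were thus the libraries high in all 3 genes at d16+10p. Fosb had 22.0 CPM in A769662 and no count in A769662+LIF, at least 19.5-fold lower against the floor of 3 counts in that library.

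Other genes led in 1 pair each. At d16+2p Lars2, a mitochondrial leucyl-tRNA synthetase, had 939 and 222 CPM and Mir6236 244 and 45.9 CPM. These 2 were also lower with LIF in the other 4 pairs, by 0.08 to 0.59. By pair the differences were -2.08, -0.22, -0.59, -0.08 and -0.40 for Lars2. For Mir6236, annotated as miRNA, they were -2.41, -0.29, -0.54, -0.08 and -0.49, so both entries moved together. Whether their reads come from the named transcripts was not tested. The remaining leading lower entries at d16+2p are annotated as antisense RNA or miRNA and were low in the same AICAR+LIF library. They were Gm14236 (77.2 and 16.7 CPM), Mir6240 (45.3 and 12.9 CPM) and Gm25732 (38.5 and 12.5 CPM). Whether this joint gap comes from that library or from LIF was not tested. In the AICAR pair at d16+10p the dioxygenase Tet3 had 21.7 and 4.44 CPM. The methyltransferase cofactor Dnmt3l had 333 and 316, 361 and 349, 1.76 and 2.54, 4.83 and 38, and 18.0 and 3.14 CPM. It was therefore high in both early pairs and moved in opposite directions in A769662 and 129/MSM.

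**Figure D4:**
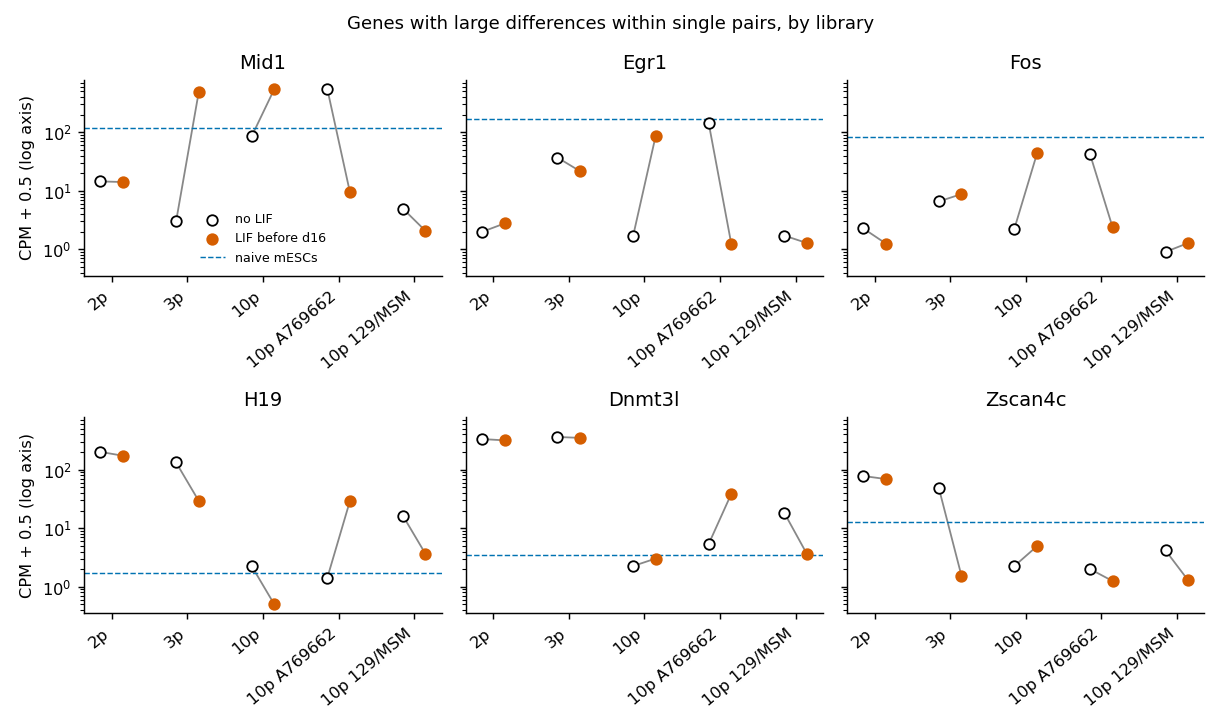
CPM plus 0.5 (log axis) of Mid1, Egr1, Fos, H19, Dnmt3l and Zscan4c in the 10 libraries by pair (x axis), without LIF (open points) and with LIF (filled points), joined within a pair, with naive mESCs as a dashed line. Mid1 runs from 2.51 to 487 CPM at d16+3p and from 556 to 9.03 CPM in the A769662 pair, and Egr1 and Fos change in opposite directions in the Oct4GIP pairs at d16+10p.

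Whole chromosomes differed in some pairs. The median difference was -0.47 at d16+3p and 0.47 in 129/MSM for chromosome 8 (565 genes), 0.36 in A769662 for chromosome 12 (391 genes), and 0.55 at d16+3p and -0.21 in A769662 for chromosome 15 (402 genes). At d16+3p 90.5% of chromosome 15 genes read higher and 7.96% of chromosome 8 genes did. Nuclear chromosomes other than these 3 stayed within 0.15 in every pair, and at d16+2p chromosomes 8, 12 and 15 were within 0.02. Of the 275 genes past 2-fold at d16+3p, 33.5% lay on chromosomes 8, 12 and 15, which held 1376 of the 10433 genes compared there; in the other pairs this share was 12.7% to 20%. DNA copy number was not measured. Without genes of these 3 chromosomes edgeR called 0 of 11182 genes, with 311 under an unadjusted p of 0.05.

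**Figure D5:**
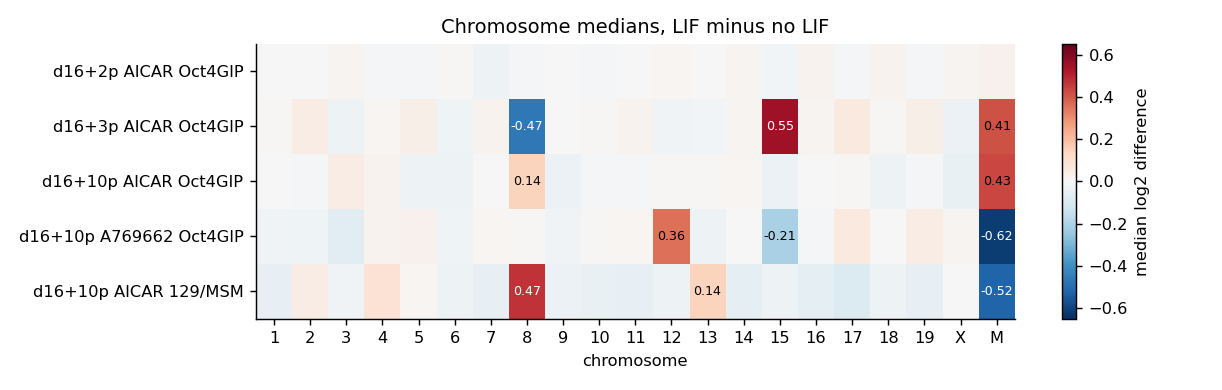
Median log2 difference with LIF minus without LIF (colour, printed where at least 0.1 in size) over the genes of each chromosome (x axis) in each pair (y axis), for genes with a mean of at least 10 CPM. Chromosome 8 lies at -0.47 at d16+3p and 0.47 in 129/MSM and chromosome 15 at 0.55 at d16+3p, while the d16+2p pair stays near 0.

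The LIF difference was next compared between passages. For the 3 pairs at d16+10p against the 2 pairs at d16+2p and d16+3p, 0 of 12821 interaction terms passed an adjusted p of 0.05 (edgeR) and 443 (3.46%) had an unadjusted p under 0.05; DESeq2 called 0, with 108 unadjusted. The unadjusted count was 62 without the d16+3p pair and 821 without the AICAR pair of Oct4GIP at d16+10p, and 0 genes passed the adjusted test in either. The median interaction was -0.46 for Wnt target genes and 0.22 for integrated stress response genes, against -0.00 over all genes, with 1 and 0 members under an unadjusted 0.05. The late pairs also differ in line and activator, which cannot be told apart from passage here.

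Finally, the difference after expansion was set against that in the culture while LIF was still present or absent, in AICAR and AICAR+LIF Oct4GIP cells at d8 and d16. These were bulk cultures on feeder fibroblasts, in a medium with serum and without the kinase inhibitors used for expansion. In the paper, most cells at d16 lacked the GFP reporter, and fewer were positive with AICAR than with AICAR+LIF. The interaction terms therefore also carry differences in medium, feeders and cell make-up. The AICAR+LIF d8 library held 438771 counts, so 3 counts equal 6.12 CPM there. Of 16404 interaction terms 0 passed an adjusted p of 0.05 with edgeR, where 823 (5.02%) had an unadjusted p under 0.05. The smallest adjusted p was 0.0515 (edgeR), shared by Tdgf1, Slc2a3 and Pou5f1. DESeq2 called 6 genes, Hk2, Nanog, Pou5f1, Slc2a3, Spp1 and Tdgf1, all with a lower LIF difference after expansion. Leaving out the d8 pair gave 7 edgeR calls, the A769662 pair 3 and the AICAR pair at d16+10p 1, all lower, and the other pairs 0.

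Of these genes, named after their values were seen, mean pair differences after expansion were 0.07 (Pou5f1), 0.02 (Nanog), 0.06 (Tdgf1), -0.31 (Slc2a3) and -0.11 (Hk2), the last 2 lower with LIF in 5 of 5 pairs. Slc2a3 had 132 and 239 CPM at d8 and 46.9 and 127 CPM at d16 without and with LIF, and its interaction was -1.45 ± 0.20. Pou5f1 had 14.3 and 36.7 CPM at d8 and 3.70 and 21.4 CPM at d16 without and with LIF, and the interaction was -1.92 ± 0.27. Nanog had 22.9 and 77.6, and 4.32 and 29.0 CPM (-2.19 ± 0.35), and Tdgf1, the Nodal co-receptor Cripto, had 12.4 and 59.2, and 2.16 and 43.7 CPM (-3.23 ± 0.44). Their levels in those cultures were far below those of all 10 expanded libraries, such as 728 CPM for the lowest Pou5f1 value. Whether the gaps of Pou5f1, Nanog and Tdgf1 at d8 and d16 reflect the share of pluripotent cells or RNA per cell was not tested. Socs3 had 40.9 and 63.3 CPM at d8 and 73.7 and 198 CPM at d16 (-1.32 ± 0.26, adjusted p = 0.409, edgeR). Over 19 STAT3 target genes the median difference was 0.60 at d8, 0.36 at d16 and -0.05 after expansion. Of these, 5 had a lower and 1 a higher interaction at an unadjusted p under 0.05, beside 437 lower and 386 higher of all 16404 genes (5.02%).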

How the data were processed

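RNA was measured in 22 mouse samples with stranded mRNA libraries and single reads. The authors converted base calls with bcl2fastq, aligned reads to Ensembl's coding and noncoding transcripts of GRCm38 (Bowtie2 2.2.5), required a MAPQ of 1 or more, and deposited raw counts of reads per gene; whether counting used strand is not given in the sources used here. Depth was 1689495 to 3404489 counts in the 10 libraries used.

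Counts of 34489 genes were analysed with edgeR 4.0.16 in R 4.3.3 (TMM factors, filterByExpr by LIF group, pair and LIF as terms, quasi-likelihood test, Benjamini-Hochberg adjustment at 0.05), with limma 3.58.1 voom and DESeq2 1.42.0 as alternatives, together with other filters, scalings, thinning to the smallest total and leaving out pairs. CPM of the 10 libraries are on the counts of genes kept by the filter, scaled by TMM factors. Those of the other libraries are on total counts, scaled by TMM factors. Pearson's r with naive mESCs used CPM on total counts without TMM factors. Pair differences are log2 of TMM-scaled CPM with a prior of 0.5. Gene positions are GRCm38 (GENCODE M21) and were found for 33819 genes. The steps were tested on simulated data. Floors cover counting error only, and intervals of log2 differences come from the edgeR fit.

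Genes are named where they had an adjusted p under 0.05 (none), otherwise up to 10 per direction with the smallest unadjusted p, 1 sign in 5 pairs and a mean log2 CPM of at least 3; up to 4 per list with the largest difference, and 9 fixed pluripotency genes; and the 5 leading genes per direction in each pair. Some genes that these rules name are not reported here. The pairs and the 17 gene lists were chosen with earlier results of these data known. Deviations of same-pair libraries from their group means had r = 0.866, 0.606, 0.470, 0.374 and 0.772 over 10329 genes, the pairing being given by line, activator and passage in the titles. For AICAR and A769662 without LIF in Oct4GIP at d16+10p, however, the best match was the LIF library of the other of these pairs.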

Additional observations from a re-analysis of the deposited data

Results flagged for a closer look

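Of 105 groups of 5 pair differences that were checked, 6 (5.71%) held 1 pair far from the other 4 by Dixon's criterion, which chance alone meets in about 1 group in 20. Mycn, a proliferation-linked transcription factor, differed by 0.52 on the log2 scale in the AICAR pair of Oct4GIP at d16+10p, with 0.22 to 0.30 in the others. In the same pair the ERK pathway inhibitor Spred2 had -0.39, against 0.08 to 0.25, and Ddit3 (CHOP) had -0.82, against 0.67 to 0.96. In the A769662 pair Bst2 had 1.43, against 0.28 to 0.47, and the median of chromosome 12 was 0.36, against -0.03 to 0.01. The median of chromosome 15 was 0.55 at d16+3p, against -0.21 to -0.02.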

How the results depend on the processing

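The count of 0 genes for early LIF held with DESeq2, limma voom, RLE or no scaling, a filter of 10 counts in each library, thinning, each pair left out, early or late pairs alone, early pairs summed, and, chosen after seeing the data, chromosome medians taken out, genes of chromosomes 8, 12 and 15 left out or both Oct4GIP pairs at d16+10p left out; without a filter 44 genes were called. With no replicate block it was also 0, with 63 genes under an unadjusted p of 0.05, so the pairing changed no call. The contrast of late with early pairs gave 0 calls under every setting run. The difference after expansion against d8 and d16 gave 6 calls with DESeq2, 3 with RLE size factors, 4 with chromosome medians taken out, 0 with the filter of 10 counts, 0 after thinning (165 under an unadjusted p of 0.05, against 823) and 0 to 7 with 1 pair left out. The difference in r with naive mESCs was -8.55e-05 over filtered genes, -0.000178 after thinning and -0.000279 to 0.00121 with 1 pair left out. With at least 200 counts, 3, 59, 114, 155 and 34 genes passed 2-fold in the pairs, in the order used above.

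Of 81 single genes checked, 31 changed sign under some setting; the cause was not tested. The log2 differences were, with early pairs alone Gbx2 0.15, Lef1 0.30, Spry2 0.051, Myc 0.12, Sycp3 0.13, Dazl 0.24, Dusp9 0.62, Map2k6 0.15, Cdkn2a -0.18, Trp53inp1 0.16, Klf4 0.011, Tfcp2l1 0.071, Nanog -0.11 and Zfp42 -0.28. With late pairs alone they were Nr0b1 -0.031, Cdh2 -0.072, Dusp6 -0.41, Spred2 -0.056, Tsix 0.56 and Ftx 0.094. With both Oct4GIP pairs at d16+10p left out they were Dazl 0.33, Dusp9 0.074, Slc2a1 0.024, Map2k6 0.21, Nanog -0.11, Zfp42 -0.067 and Dppa5a -0.036. With thinning they were Dusp6 -0.018 and Kdm5d -0.13. With the early pairs summed it was Dusp6 -0.049. With DESeq2 it was Dusp6 -0.000403. With 1 pair left out the ranges were Lif -0.37 to 0.12, Nr0b1 -0.064 to 0.35, Myc -0.29 to 0.20, Dusp6 -0.17 to 0.20, Tet3 -0.65 to 0.017, Dazl -0.62 to 0.017, H19 -1.27 to 0.21, Zscan4d -1.31 to 0.24, Tsix -0.55 to 0.25, Rlim -0.047 to 0.33, Dusp9 -0.45 to 0.14, Kdm5d -0.017 to 0.25, Eno1 -0.054 to 0.34, Map2k6 -0.19 to 0.11, H2-D1 -0.023 to 0.59, Cdkn2a -0.13 to 0.57, Nanog -0.13 to 0.099, Zfp42 -0.11 to 0.19 and Esrrb -0.11 to 0.014.

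Depth limits genes near 1 or 2 CPM, and 5 pairs limit the size of a common difference that can be called.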

Other observations

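The library of metformin+LIF d16+10p, which has no partner without LIF and entered no comparison, had 3.19 CPM of Mid1, 0 counts of Egr1 and 0.869 CPM of Fos, 31.9 CPM of H19 and 20.9 CPM of Dnmt3l. In the naive mESC library these were 120 CPM of Mid1, 170 CPM of Egr1, 83.7 CPM of Fos, 1.21 CPM of H19 and 3.03 CPM of Dnmt3l. Read by library and relative to the others, chromosome 15 stood at 0.31, 0.21, 0.20 and 0.24 in AICAR+LIF d16+3p, AICAR d16+10p, AICAR+LIF d16+10p and A769662 d16+10p of Oct4GIP. Among the 10 paired libraries these were also the 4 with Mid1 between 84.9 and 556 CPM. The naive mESC library, with 120 CPM of Mid1, stood at -0.23 for chromosome 15. The part of chromosome 15 in the Mid1 level was not tested.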
